A study of Mus musculus with 6 samples.

Results

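The splicing factor genes described here are 54 of the 32285 genes in the count tables, chosen by gene symbol from a list of named splicing regulators and core spliceosome proteins. All 54 were found under their symbols, and all 54 passed the filter on low counts when melanoma cells were compared with immune cells. By role they comprised 10 genes of the snRNPs and of 3′ splice site recognition, 12 genes of the SR proteins and Tra2 proteins, 19 genes of the hnRNP and PTB proteins, 5 RBM genes, 5 genes of SR kinases and nuclear speckle scaffolds, and 3 MBNL and CELF genes. Their levels were followed in melanoma cells and in the immune cells around them, in both treatments.

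The samples were B16-F10 tumors, a transplanted mouse melanoma cell line of C57BL/6 origin, grown in female C57BL/6 mice of 6 to 10 weeks. The αPD-1 group (3 samples) was given 150 μg of anti-PD-1 antibody on 3 days a week, starting on day 7. The αPD-1 + corin group (3 samples) was given the same antibody and, starting on day 6, 200 μg of corin every day by intraperitoneal injection. In the study's methods the daily injections were of corin or of a vehicle control, 5% DMSO in PBS. Corin is a dual inhibitor of the CoREST complex that joins a histone deacetylase inhibitor to an LSD1 inhibitor, and both groups carried the antibody, so that the contrast between them is corin on top of αPD-1. Arms were of 10 mice, but which or how many of them a sample comes from is not given, so p-values measure only the spread between these 3 samples per group, which may be technical. Frozen tumor suspensions were thawed, cleared of dead cells and enriched for CD45+ cells on beads, and single-cell libraries were made with a 5′ kit. Reads of such libraries mark the 5′ part of a transcript, so the values are gene totals and say nothing about which splice sites were used.

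Splicing is carried out by the spliceosome, in which U1 snRNP recognizes the 5′ splice site, the U2AF heterodimer and SF1 recognize the 3′ splice site and the branch point, and U2 snRNP with its SF3A and SF3B complexes then takes the branch point. SR proteins mostly favor the use of nearby exons and hnRNP proteins often repress it, with CLK kinases phosphorylating the SR proteins and SON and SRRM2 building the nuclear speckles in which these factors are stored. MBNL and CELF proteins regulate tissue-specific exons, and Mbnl1 and Celf2 are well known in blood and immune cells.

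The 6 libraries held between 52281422 and 84276739 UMIs in between 6433 and 13228 barcodes, and 38294 of 52899 barcodes were kept with at least 600 genes and at most 10% mitochondrial UMIs. Melanoma cells were the 7000 barcodes with at least 10 UMIs of Pmel, Mlana, Dct and Tyrp1 together and no Ptprc (CD45) UMI, between 424 and 1910 per sample. All 6 of the further pigment cell markers (Tyr, Sox10, Mitf, Slc45a2, Trpm1 and Cdh19) were higher in these cells than in immune cells, and the median cell had all 6. The 12 monocyte and macrophage markers and the 10 T cell markers were all lower in them, with median log2 fold changes of -9.10 and -9.55. These markers also assigned the immune classes, so this direction was built into the rules. Between 3.76% and 8.85% of melanoma cells per sample still held 3 or more UMIs of the monocyte and macrophage markers. The 6 fibroblast markers were also higher in melanoma cells than in immune cells (median 4.11), where barcodes with mostly fibroblast markers were not counted as immune. Immune cells were barcodes whose marker UMIs came mostly from 1 immune class and its related classes, and 8465 kept barcodes had no class. Their makeup differed between treatments: B cells numbered 716 to 1075 per sample with αPD-1 and 14 to 48 with αPD-1 + corin, and neutrophils 10 to 14 against 72 to 1223. Melanoma cells held many more UMIs per cell than immune cells of the same libraries, with medians between 18483 and 48518 against 2483 to 4334. More of the melanoma cells were cycling, with a Mki67 or Top2a UMI in 62.8% to 81.4% of cells against 11.9% to 31.3%. Pairs of libraries shared between 10 and 32 barcode sequences.

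Promoter sequence was available for 49 of the 54 genes in the RefSeq table for GRCm38.p6, as windows from 250 bases before to 50 bases after the start (no window for Hnrnpll, Ptbp3, Puf60, U2af2 and Clk1). The 190 bases from 250 to 61 bases upstream are printed for the 2 genes with the largest excess in melanoma cells and for the gene with the largest deficit. They lie at chr11:4160104-4160293 on the plus strand (Sf3a1), at chr11:51606942-51607131 on the minus strand (Hnrnpab) and at chr3:60500929-60501118 on the plus strand (Mbnl1, the second of 2 listed starts). Capitals mark a match on either strand to 1 of 3 motifs that were searched. The first was CCGGAA, the core of ETS family sites. The second was CACGTG, the E-box bound by Myc. The third was CCAAT, the box bound by NF-Y. Matches of these motifs were counted separately.
Sf3a1: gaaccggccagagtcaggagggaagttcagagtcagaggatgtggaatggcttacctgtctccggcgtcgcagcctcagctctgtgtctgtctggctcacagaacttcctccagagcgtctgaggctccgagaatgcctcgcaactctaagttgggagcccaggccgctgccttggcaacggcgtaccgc
Hnrnpab: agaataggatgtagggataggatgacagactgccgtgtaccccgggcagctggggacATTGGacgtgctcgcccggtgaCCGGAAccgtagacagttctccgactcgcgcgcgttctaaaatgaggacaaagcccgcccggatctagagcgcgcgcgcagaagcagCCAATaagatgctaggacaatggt
Mbnl1: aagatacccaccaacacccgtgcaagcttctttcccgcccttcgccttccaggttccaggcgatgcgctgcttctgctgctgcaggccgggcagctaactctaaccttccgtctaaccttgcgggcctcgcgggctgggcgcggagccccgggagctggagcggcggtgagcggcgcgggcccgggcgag
The Hnrnpab stretch held 1 match to CCGGAA and 2 to CCAAT, and the Sf3a1 and Mbnl1 stretches held none. The whole 300-base window of Sf3a1 did hold CCGGAA, though not within the printed bases. Over whole 300-base windows CCGGAA was found in 32.7% of the splicing factor genes and in 15.2% of the 27025 genes with a window. These shares used the first listed start of each gene, so the printed Mbnl1 window is not among them. The CCAAT box was found in 55.1% against 37.9%, and the E-box motif CACGTG in 14.3% against 7.24%. Median GC content was 62.3% in the windows of splicing factor genes and 52.7% in all windows, and its part in the motif shares was not tested. Among the genes higher in melanoma cells 40.9% of 22 windows held CCGGAA, and among those lower 46.2% of 13. For CCAAT these shares were 63.6% and 46.2%, and for CACGTG 9.09% and 23.1%. Differences between these small sets were not tested.

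Across 9 cell classes the 54 genes together took between 0.651% of UMIs (± 0.0214 SD, n = 6 samples) in fibroblasts and 1.37% (± 0.0711, n = 5) in B cells. T cells followed at 1.36% (± 0.0529, n = 6), NK cells at 1.29% (± 0.0491), melanoma cells at 1.24% (± 0.0523) and dendritic cells at 1.12% (± 0.0819), and the ranges of B, T and NK cells overlapped each other. Neutrophils (0.872%, n = 3), monocytes and macrophages (0.853%, n = 6) and plasma cells (0.814%, n = 3) lay below every melanoma sample. The ranges of dendritic, NK and T cells overlapped that of melanoma cells. In summed cells, as in bulk tissue, a lower share cannot be told apart from more RNA of other genes per cell.

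**Figure D1:**
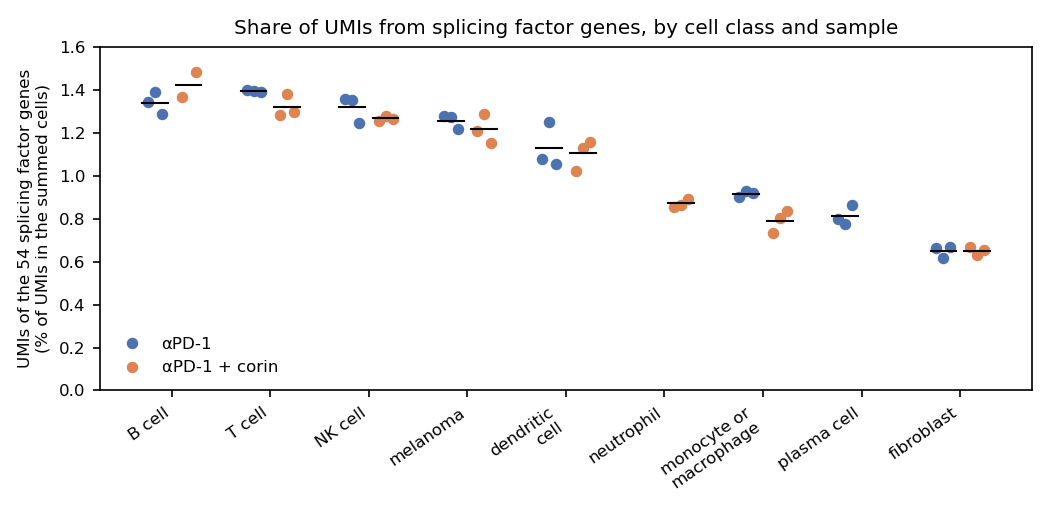
Share of UMIs (y axis, % of all UMIs in the summed cells) that came from the 54 splicing factor genes, for each cell class (x axis) and sample. Each point is 1 sample with at least 20 cells of the class, bars are group means, blue is αPD-1 and orange αPD-1 + corin. Melanoma samples sit between 1.15% and 1.29%, above every monocyte and macrophage sample (0.733% to 0.927%).

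Single genes varied between classes to different degrees. The ratio of the class with the highest mean level to the class with the lowest had a median of 2.57 over the 54 genes. It ran from 1.79 (Snrnp70) to 8.95 (Hnrnpll). B cells held the highest level of 20 genes, melanoma cells of 16, T cells of 9 and NK cells of 5, while fibroblasts held the lowest level of 29 and neutrophils of 15. The genes named next were chosen by this ratio after their values were seen. Hnrnpll, a regulator of Ptprc splicing in activated lymphocytes, had the widest range, from 6.38 ± 6.26 CPM (UMIs of the gene scaled to a common library size, SD, n = 5) in B cells and 11.7 ± 2.33 CPM in plasma cells (n = 3) to 57.1 ± 3.44 CPM in melanoma cells (n = 6). Clk1 reached 398 CPM in B cells and 58.3 CPM in fibroblasts. Mbnl1 stood at 784 ± 195 CPM in NK cells, 767 ± 199 CPM in T cells and 619 ± 71.6 CPM in B cells, against 152 ± 8.28 CPM in melanoma cells and 125 ± 29.4 CPM in fibroblasts. These levels separated NK, T and B cells from melanoma cells and fibroblasts without overlap, while NK, T and B cells did not differ beyond their spread. Mbnl1 was not high in these classes alone. In the tests below, with CPM scaled within each test, dendritic cells held 492 to 585 CPM with αPD-1 + corin and 580 to 716 CPM with αPD-1. Monocytes and macrophages held 222 to 403 CPM, where melanoma cells held 128 to 150 CPM.

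U2af2 and Srsf1, the 2 factors that the study follows, had ratios of 2.04 and 2.66 between their highest and lowest class. U2af2, the large U2AF subunit that binds the polypyrimidine tract, lay at 103 ± 11.1 CPM in B cells, 102 ± 13.7 CPM in T cells, 101 ± 2.92 CPM in melanoma cells and 99.0 ± 28.4 CPM in NK cells, an order without differences beyond the spread. Dendritic cells followed at 85.1 ± 21.3 CPM, with a range that overlapped all of these. It was lower than in every melanoma sample in monocytes and macrophages (73.3 ± 7.88 CPM), plasma cells (60.7 ± 2.69 CPM), fibroblasts (51.8 ± 6.31 CPM) and neutrophils (50.6 ± 19.3 CPM). Srsf1, an SR protein that promotes exon inclusion, lay at 88.3 ± 6.88 CPM in melanoma cells, 87.5 ± 15.5 CPM in T cells and 85.4 ± 20.6 CPM in NK cells. Its level in monocytes and macrophages was 42.7 ± 6.92 CPM and in fibroblasts 37.8 ± 8.64 CPM, below every melanoma sample, and it was lowest in neutrophils (33.2 ± 18.2 CPM, n = 3).

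**Figure D2:**
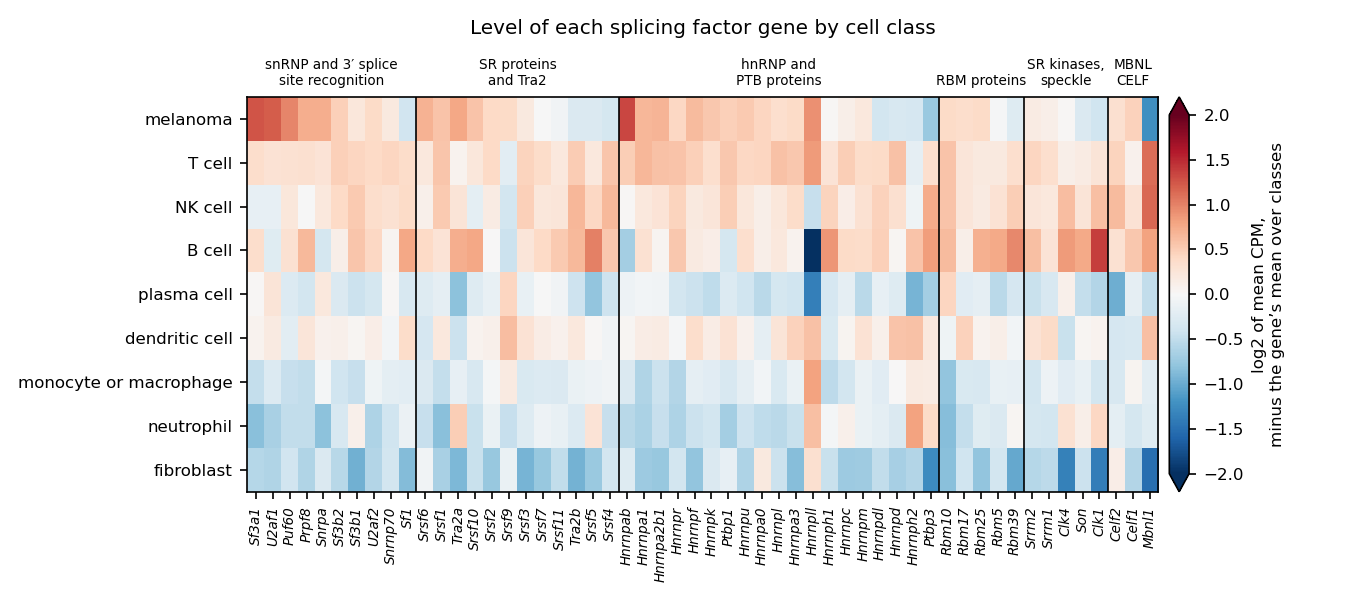
Level of each of the 54 genes (x axis, ordered by role) in 9 cell classes (y axis), as log2 of the mean CPM over samples minus the gene's own mean over the classes. Red is above and blue below that mean, and colors end at 2 log2 units. Melanoma cells are red for Sf3a1, U2af1 and Hnrnpab and blue for Mbnl1 and Ptbp3, and Hnrnpll is blue in B and plasma cells.

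The first comparison asked which splicing factor genes differ between melanoma cells and immune cells of the same tumors. UMIs were summed per sample and lineage, and each sum of melanoma cells was compared with the sum of immune cells from its own sample. At an adjusted p below 0.05 (edgeR quasi-likelihood test), 23 of the 54 genes were higher in melanoma cells, 15 were lower and 16 did not pass. Because the lineages differ in most genes, 40.2% of the 16498 genes tested were higher and 41.2% lower, so the share of splicing factor genes that differed was below the background of 81.4%. The median log2 fold change of the 54 genes was 0.15 and that of all genes -0.02. Of the 23 higher genes 22 were higher in 6 of 6 samples, and the 15 lower genes were lower in 6 of 6 samples. The 6 melanoma sums did not overlap the 6 immune sums for 33 genes, and 65.3% of all genes did not overlap. When only cells with 2000 to 10000 UMIs were summed, which left 25 to 384 melanoma cells per sample and median UMIs of 3989 to 5792 in melanoma and 3497 to 4401 in immune cells, 10 genes were higher and 22 lower, and Hnrnpa0 and Sf3b2 changed from higher to lower. Of all genes 26.5% were higher and 40.2% lower in that fit. When cells with a Mki67 or Top2a UMI were left out, 16 were higher and 22 lower, where 36.7% and 42.1% of all genes were. The genes higher under all 18 alternatives were 7, namely Sf3a1, Hnrnpab, U2af1, Prpf8, Srsf6, Hnrnpa1 and Tra2a, and 12 genes were lower under all 18. The share of all genes called under all 18 is not given, so these counts are not set against a background.

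**Figure D3:**
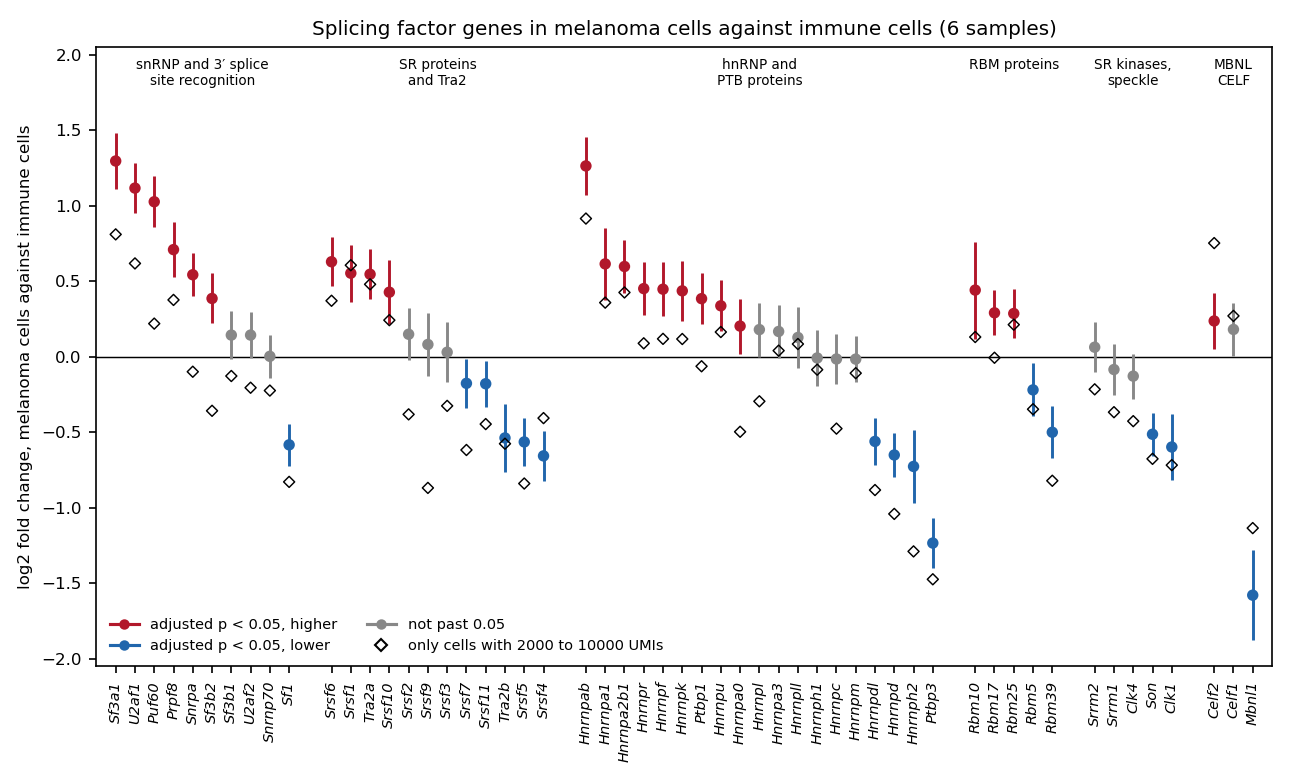
Log2 fold change of melanoma cells against immune cells (y axis) for the 54 genes (x axis, grouped by role), with 95% intervals from edgeR over 6 samples. Red and blue mark adjusted p below 0.05 (higher and lower), grey marks the rest, and open diamonds give the value from cells with 2000 to 10000 UMIs only. Most diamonds lie below their points, with Celf2 and Mbnl1 among those above.

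Among the 10 genes of the snRNPs and 3′ splice site recognition, 6 were higher in melanoma cells, 1 was lower and 3 did not pass, with a median log2 fold change of 0.46. In cells with 2000 to 10000 UMIs 3 were higher and 2 lower, and without cycling cells 6 and 2. Sf3a1, a subunit of the SF3A complex of U2 snRNP, was measured at 92.0, 102 and 88.3 CPM in melanoma cells of the αPD-1 samples (replicates 1 to 3) and at 95.1, 105 and 90.0 CPM in those of the αPD-1 + corin samples. In immune cells it lay at 36.5, 38.2 and 38.2 CPM with αPD-1 and at 37.6, 37.6 and 45.1 CPM with αPD-1 + corin. The lineages did not overlap in any sample, and Sf3a1 was 2.45-fold higher in melanoma cells (log2 fold change 1.30 ± 0.08 SE, adjusted p = 1.66e-06, edgeR). U2af1, the small U2AF subunit that reads the AG at the 3′ splice site, ranged from 261 to 298 CPM (median 279) in melanoma cells and from 115 to 148 CPM (median 124) in immune cells, a log2 fold change of 1.12 ± 0.07 (adjusted p = 1.79e-06, edgeR). Puf60, a U2AF-related polypyrimidine tract binder, ranged from 149 to 174 CPM against 73.9 to 90.5 CPM (log2 fold change 1.03 ± 0.07, adjusted p = 3.35e-06, edgeR), but in cells of 2000 to 10000 UMIs its log2 fold change was 0.22 and no longer passed (adjusted p = 0.181). Prpf8, the central scaffold of U5 snRNP, ranged from 126 to 148 CPM against 77.2 to 95.6 CPM (log2 fold change 0.71 ± 0.08, adjusted p = 4.97e-05, edgeR). The large subunit U2af2 ranged from 90.6 to 95.8 CPM in melanoma cells and from 75.6 to 93.9 CPM in immune cells, the ranges overlapped, and its log2 fold change of 0.14 ± 0.07 did not pass (95% interval -0.01 to 0.30, adjusted p = 0.0762, edgeR). Snrpa of U1 snRNP (log2 fold change 0.54) and Sf3b2 (0.39) were also higher, but in cells with 2000 to 10000 UMIs Snrpa stood at -0.10 and did not pass (adjusted p = 0.562, edgeR), and Sf3b2 turned as given above. Sf1, the branch point binding protein, was the lower member at -0.58.

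SR and Tra2 proteins split in both directions, with 4 of 12 higher, 5 lower and 3 not past the threshold. In cells with 2000 to 10000 UMIs 3 were higher and 7 lower, and without cycling cells 2 and 8. Srsf6 ranged from 137 to 153 CPM in melanoma cells and from 86.7 to 99.6 CPM in immune cells (log2 fold change 0.63 ± 0.07, adjusted p = 5.15e-05, edgeR). Srsf4, a close relative, went the other way, from 29.1 to 32.6 CPM in melanoma cells and from 42.1 to 53.0 CPM in immune cells (log2 fold change -0.66 ± 0.07, adjusted p = 4.91e-05, edgeR). The paired Tra2 genes, whose products are sequence-specific splicing activators, also differed in direction, with Tra2a at 0.55 and Tra2b at -0.54. Srsf1 ranged from 73.8 to 89.6 CPM against 46.4 to 63.8 CPM without overlap (log2 fold change 0.55 ± 0.08, adjusted p = 3.00e-04, edgeR), and without cycling cells its log2 fold change was 0.11 and did not pass (adjusted p = 0.273). Srsf10 was higher at 0.43, and Srsf5 (-0.56), Srsf7 (-0.18) and Srsf11 (-0.18) were lower. Srsf10 did not pass in cells with 2000 to 10000 UMIs (0.24, adjusted p = 0.204, edgeR) or without cycling cells (0.15, adjusted p = 0.28, edgeR).

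hnRNP and PTB genes gave 9 higher, 4 lower and 6 not past the threshold. This balance turned to 3 higher and 6 lower in cells with 2000 to 10000 UMIs and to 6 and 7 without cycling cells. Hnrnpab, an AU-rich RNA binding protein, ranged from 723 to 773 CPM in melanoma cells and from 272 to 378 CPM in immune cells (log2 fold change 1.26 ± 0.08, adjusted p = 2.35e-06, edgeR). Hnrnpa1 (0.61) and Hnrnpa2b1 (0.60), which repress exons through silencer elements, were higher as well. Ptbp1 and Ptbp3, paralogous pyrimidine tract binding repressors, moved apart: Ptbp1 was higher at 0.38, and Ptbp3 ranged from 102 to 131 CPM in melanoma cells against 238 to 312 CPM in immune cells (log2 fold change -1.23 ± 0.07, adjusted p = 1.01e-06, edgeR). In cells of 2000 to 10000 UMIs Ptbp1 stood at -0.06, so the contrast within this pair rested there on Ptbp3, at -1.47. Hnrnpd, the AU-rich element binder AUF1, ranged from 139 to 154 CPM against 220 to 248 CPM (log2 fold change -0.65 ± 0.06, adjusted p = 1.99e-05, edgeR), and its relative Hnrnpdl was lower at -0.56. Hnrnph2, a G-run binding protein, ranged from 35.1 to 47.7 CPM against 57.0 to 99.1 CPM (log2 fold change -0.73 ± 0.11, adjusted p = 2.69e-04, edgeR), while its paralog Hnrnph1 gave -0.01 and did not pass.

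The remaining groups were small. Rbm10 (0.44), Rbm17 (0.29) and Rbm25 (0.29), which act in splice site choice, were higher, and Rbm39 (-0.50) and Rbm5 (-0.22) were lower. In cells with 2000 to 10000 UMIs 0 of the 3 higher RBM genes passed, with Rbm10 at 0.13 (adjusted p = 0.576, edgeR), Rbm17 at -0.0069 (0.970) and Rbm25 at 0.21 (0.204), and both lower ones still did. Without cycling cells 1 RBM gene was higher (Rbm17) and 1 was lower (Rbm39). Of the kinase and speckle genes 2 were lower and 3 did not pass, namely Clk4, Srrm1 and Srrm2. In cells with 2000 to 10000 UMIs 4 were lower, with Clk4 and Srrm1 among them. Without cycling cells 3 were lower, with Srrm1 among them. Clk1, a kinase of SR proteins, ranged from 98.9 to 124 CPM in melanoma cells and from 125 to 190 CPM in immune cells (log2 fold change -0.60 ± 0.09, adjusted p = 4.14e-04, edgeR). Son, the speckle scaffold, was lower at -0.51. Mbnl1 showed the largest difference of all 54 genes. Melanoma cells held 139, 136 and 154 CPM of it with αPD-1 and 128, 142 and 144 CPM with αPD-1 + corin. Immune cells held 502, 494 and 508 CPM with αPD-1 and 256, 362 and 464 CPM with αPD-1 + corin, so every immune sum was above every melanoma sum, and the immune values of the αPD-1 + corin samples were spread more widely. The log2 fold change was -1.58 ± 0.13 (adjusted p = 8.19e-06, edgeR), or 2.99-fold lower in melanoma cells. Celf2 was higher at 0.24 and Celf1 at 0.18 did not pass.

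Immune sums differ in makeup between treatments, so melanoma cells were also compared with monocytes and macrophages alone and with T cells alone. These comparisons share the melanoma sums. Against monocytes and macrophages 32 genes were higher and 12 lower, where 43.3% of the 15996 genes tested were higher and 40.3% lower (83.6% in all), and the median of the 54 genes was 0.21 against 0.07 for all genes. No overlap between the sums was seen for 37 genes, against 68.6% of all genes. With RLE size factors the split was 26 higher and 17 lower, and with DESeq2 29 and 18. Against T cells the balance was the other way, with 10 higher and 22 lower, where 40.9% of 14788 genes were higher and 35.2% lower (76.1% in all), and a median of -0.12 against 0.10 for all genes. The sums did not overlap for 21 genes, against 55.2% of all genes. Without a filter on low counts this split was 17 higher and 11 lower, in a fit whose median over all genes was 0.42. Cycling differed between these references, since T cells held a Mki67 or Top2a UMI in 22.9% to 49.3% of cells and monocytes and macrophages in 11.3% to 29.4%. Without cycling cells 21 genes were higher and 21 lower against monocytes and macrophages, and 9 and 25 against T cells. The number of genes lower than in T cells fell to between 13 and 15 when αPD-1 replicate 1, 2 or 3 or αPD-1 + corin replicate 2 or 3 was left out. Shares of all genes are not given for these alternative fits. Their counts therefore do not show whether splicing factor genes moved more than other genes.

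Single genes showed which differences held against both references. Sf3a1 was higher by 1.43 ± 0.06 against monocytes and macrophages and by 0.91 ± 0.10 against T cells on the log2 scale. U2af1 gave 1.18 ± 0.05 and 0.89 ± 0.09, and Hnrnpab 1.32 ± 0.05 and 0.83 ± 0.09. Ptbp3 was lower by a similar size in both (-1.20 ± 0.05 and -1.09 ± 0.09). Hnrnpd was lower in both too, but not by a similar size (-0.63 ± 0.06 and -0.92 ± 0.08). Mbnl1 gave -1.27 ± 0.12 against monocytes and macrophages and -2.32 ± 0.11 against T cells. Srsf1 was higher than in monocytes and macrophages (0.76 ± 0.08, adjusted p = 1.65e-05, edgeR) and gave 0.04 ± 0.10 against T cells, with a 95% interval of -0.18 to 0.25. Hnrnph2 was lower than in monocytes and macrophages (-0.82 ± 0.06) and gave -0.08 ± 0.11 against T cells. U2af2 was higher by 0.17 ± 0.06 than in monocytes and macrophages (adjusted p = 0.0332, edgeR), a call that ended under 9 of the alternatives and whose sign turned in 4 of them, and it gave -0.06 ± 0.09 against T cells.

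In T cells against monocytes and macrophages 29 of 54 genes were higher and 4 lower, where 29.9% of 12862 genes tested were higher and 35.4% lower (65.3% in all). The sums did not overlap for 22 genes, against 40.7% of all genes. The median was 0.25 against -0.04 for all genes. Rbm10, a splicing regulator of the RBM family, was higher by 1.03 ± 0.10 and Mbnl1 by 0.96 ± 0.11 on the log2 scale, and Hnrnpa1 by 0.90. The 4 lower genes, like these named after their values were seen, were Hnrnph2 (-0.81), Srsf9 (-0.78), Hnrnpll (-0.34) and Celf1 (-0.33). All 16 genes of a proliferation list were higher in T cells too, and without cycling cells 18 splicing factor genes were higher and 3 lower. Without αPD-1 replicate 2 the lower genes were 2. Shares of all genes are not given for these alternative fits. The part of cycling in this result was otherwise not tested.

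Other genes of the splicing machinery were taken from a list of 145 further genes, of which 143 were in the count tables. In melanoma cells against immune cells 80 of the 139 tested were higher, 23 were lower and 36 did not pass, with a median log2 fold change of 0.26, where 40.2% of all genes were higher and 41.2% lower. In cells with 2000 to 10000 UMIs 31 of 138 were higher and 35 lower, and without cycling cells 51 and 39. Sm and LSm proteins, which form the rings of the snRNPs, were higher in 13 of 14 cases with a median of 0.61, but in 3 of 14 in cells with 2000 to 10000 UMIs (median 0.05) and in 9 of 14 without cycling cells (median 0.25). Lsm8 (171 against 52.4 CPM, log2 fold change 1.72 ± 0.08) and Usp39 (63.0 against 24.5 CPM, 1.37 ± 0.08) were among the largest, after Rbfox2 (68.0 against 3.97 CPM, 4.09 ± 0.19) and the low-level Nova1 (5.34 against 0.104 CPM, 5.55 ± 0.37), both regulators known from neural cells. Syf2 (-1.14 ± 0.08), Hnrnpul2 (-0.92 ± 0.07) and Hnrnph3 (-0.85 ± 0.10) were lower, as was Srsf12, at 0.031 against 0.682 CPM.

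The second comparison asked whether corin on top of αPD-1 changed these genes in melanoma cells. None of the 54 genes passed (0 of 54, edgeR), and the same held for 0% of the 14699 genes tested, of which 2074 had an unadjusted p below 0.05. Of the 54 genes 5 had an unadjusted p below 0.05, 3 higher and 2 lower with corin. DESeq2 called 236 genes higher and 86 lower over the whole table, and of the 54 genes it called 1, Rbm39 (adjusted p = 0.0361, DESeq2). Changes of the 54 genes ran from -0.21 to 0.22 on the log2 scale with a median of -0.02, and their 95% intervals from edgeR stayed between -0.45 (Tra2a) and 0.39 (Son). The groups did not overlap for 11 of the 54 genes, 4 higher and 7 lower with corin, and for 20.5% of all genes tested.

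U2af2 was measured at 103, 102 and 97.8 CPM in melanoma cells with αPD-1 and at 101, 101 and 102 CPM with αPD-1 + corin. The groups overlapped, and the log2 fold change was 0.01 ± 0.05 (95% interval -0.12 to 0.14, adjusted p = 0.964, edgeR). Srsf1 was measured at 96.8, 86.7 and 90.9 CPM with αPD-1 and at 86.8, 88.5 and 80.2 CPM with αPD-1 + corin, again with overlap (log2 fold change -0.10 ± 0.07, 95% interval -0.27 to 0.06, adjusted p = 0.548, edgeR). For neither factor did the difference exceed the spread between samples.

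The genes with the smallest p values are given as values, since none passed. Rbm39, an SR-like coactivator of splicing, lay at 471, 470 and 459 CPM with αPD-1 and at 521, 563 and 530 CPM with αPD-1 + corin (log2 fold change 0.21 ± 0.06, adjusted p = 0.217, edgeR). Son gave 163, 177 and 190 CPM against 212, 210 and 198 CPM with corin (0.22 ± 0.07, adjusted p = 0.258, edgeR). Srsf5, an SR protein, gave 200, 164 and 176 CPM against 202, 211 and 208 CPM (0.20 ± 0.08, adjusted p = 0.334, edgeR). Each of these 3 had every corin sample above every αPD-1 sample, although for Srsf5 by little. Rbm5, which regulates apoptosis genes by splicing, gave 80.3, 81.8 and 85.7 CPM against 87.5, 91.9 and 92.7 CPM (0.13 ± 0.06, adjusted p = 0.359, edgeR). On the other side stood Hnrnpa0 with 175, 168 and 173 CPM against 152, 154 and 145 CPM with corin (-0.20 ± 0.06, adjusted p = 0.227, edgeR) and Ptbp3 with 135, 130 and 141 CPM against 114, 126 and 110 CPM (-0.21 ± 0.07, adjusted p = 0.277). These lay without overlap too. Celf1, a CUG-binding regulator, gave 101, 99.4 and 112 CPM against 92.4, 96.8 and 89.8 CPM (-0.16 ± 0.07, adjusted p = 0.357, edgeR), and Srsf2 gave 299, 286 and 272 CPM against 264, 264 and 257 CPM (-0.13 ± 0.06, adjusted p = 0.382). Melanoma cells of the αPD-1 + corin samples also had fewer UMIs (medians 18483 to 33193 against 35179 to 48518) and fewer cycling cells (62.8% to 72.1% against 74.2% to 81.4%), and none of the 16 proliferation genes passed, with a median of -0.29. Leaving out cycling cells, or keeping only cells with 2000 to 10000 UMIs, left the count of called splicing factor genes at 0. The other splicing genes gave 0 of 138 called with a median of -0.04.

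**Figure D4:**
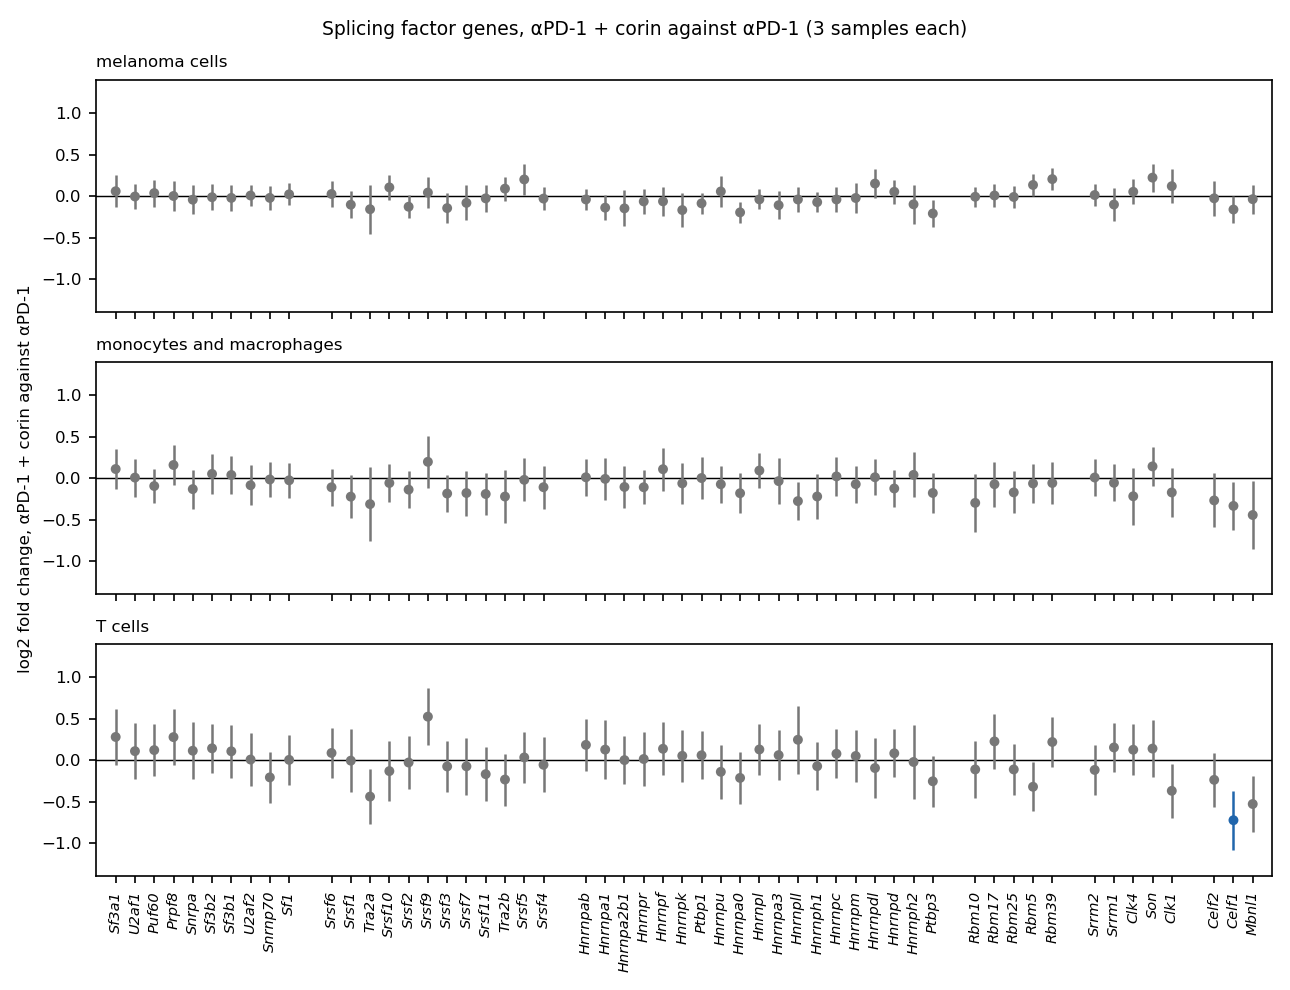
Log2 fold change of αPD-1 + corin against αPD-1 (y axis) for the 54 genes (x axis, in the same order as for melanoma against immune cells) in melanoma cells, monocytes and macrophages, and T cells. Lines are 95% intervals from edgeR with 3 samples per group, grey points did not pass and the blue point is adjusted p below 0.05. Celf1 in T cells is the 1 gene marked, and in melanoma cells all values lie between -0.21 and 0.22.

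The same contrast was made in the immune classes with at least 20 cells in every sample. In monocytes and macrophages, the class with most cells, 0 of 54 genes passed (edgeR), where 0.509% of the 12763 genes tested did (0.235% higher and 0.274% lower), and 3 had an unadjusted p below 0.05. Groups did not overlap for 14 genes, against 21.3% of all genes. The 54 genes together took 0.900%, 0.927% and 0.920% of UMIs with αPD-1 and 0.733%, 0.802% and 0.837% with αPD-1 + corin, without overlap. In the same sums 5 of 8 B cell markers were lower with corin (median -2.98, summed level 245 to 300.1 CPM with αPD-1 and 39.7 to 57.0 CPM with αPD-1 + corin), and 2 of 8 neutrophil markers were higher (median 3.52, 88.2 to 119 CPM against 283 to 1488 CPM). Their part in this result was not tested. With 3 samples against 3 a two-sided exact permutation test of such a difference cannot go below 0.1. Single genes with the smallest p values were lower: Mbnl1 at 364, 350 and 339 CPM against 200, 247 and 327 CPM (-0.44 ± 0.17, adjusted p = 0.282, edgeR), Celf1 at 76.2, 81.2 and 89.8 CPM against 64.0, 57.2 and 74.97 CPM (-0.33 ± 0.13, adjusted p = 0.269) and Hnrnpll at 62.0, 54.8 and 55.6 CPM against 46.7, 45.8 and 49.7 CPM (-0.28 ± 0.10, adjusted p = 0.247). The corin samples were spread for Mbnl1, with replicate 3 close to the αPD-1 samples. When αPD-1 + corin replicate 3 was left out, 3 of the 54 genes passed, among them Mbnl1 at -0.66 (adjusted p = 0.0164, edgeR) and Celf1 at -0.45 (adjusted p = 0.0408, edgeR). The share of all genes called in that fit is not given here. On the other side Prpf8 (0.16 ± 0.10), Srsf9 (0.20 ± 0.14) and Son (0.14 ± 0.10) had adjusted p values of 0.476, 0.499 and 0.516.

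In T cells 1 of 54 genes passed, where 5.13% of the 9580 genes tested were lower and 1.28% higher (6.41% in all). Groups did not overlap for 9 genes, against 25.4% of all genes. Celf1 was measured at 103, 78.9 and 109 CPM with αPD-1 and at 52.4, 55.9 and 60.8 CPM with αPD-1 + corin. All corin samples were below all αPD-1 samples, and the gene was lower by 0.72 ± 0.17 on the log2 scale (log2 fold change -0.72, 95% interval -1.08 to -0.37, adjusted p = 0.0196, edgeR). The call was not stable: it ended when αPD-1 replicate 1 (adjusted p = 0.102), αPD-1 replicate 3 (0.0985), αPD-1 + corin replicate 2 (0.075) or αPD-1 + corin replicate 3 (0.0536) was left out in edgeR, and with DESeq2 (0.0525). The number of T cells was 477 to 681 per sample with αPD-1 and 113, 247 and 1059 with αPD-1 + corin, and cycling T cells were 22.9% to 30.7% against 30.1% to 49.3%. In these sums the 5 B cell markers tested of 8 were all lower with corin (median -3.94, summed level of the 8 markers 83.6 to 117 CPM against 0 to 12.1 CPM), and 3 of 9 monocyte and macrophage markers were higher (315 to 364 CPM against 334 to 699 CPM). Of the nuclear retained RNAs 2 of 3 were lower, and of 14 dissociation stress genes 3 were lower and 1 higher. The part of these in the change of Celf1 was not tested. The next genes by p were named after their values were seen. Mbnl1 lay at 956, 732 and 1046 CPM against 653, 632 and 614 CPM (-0.53 ± 0.16, adjusted p = 0.0581, edgeR) and Srsf9, an SR protein, at 64.1, 68.0 and 50.9 CPM against 105, 85.4 and 86.7 CPM (0.53 ± 0.16, adjusted p = 0.0635). Both were without overlap between the groups and did not pass. U2af2 gave a log2 fold change of 0.01 ± 0.15 in T cells, and Srsf1 lay at 74.6, 81.6 and 100.4 CPM against 109, 93.0 and 71.5 CPM, with overlap for both.

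**Figure D5:**
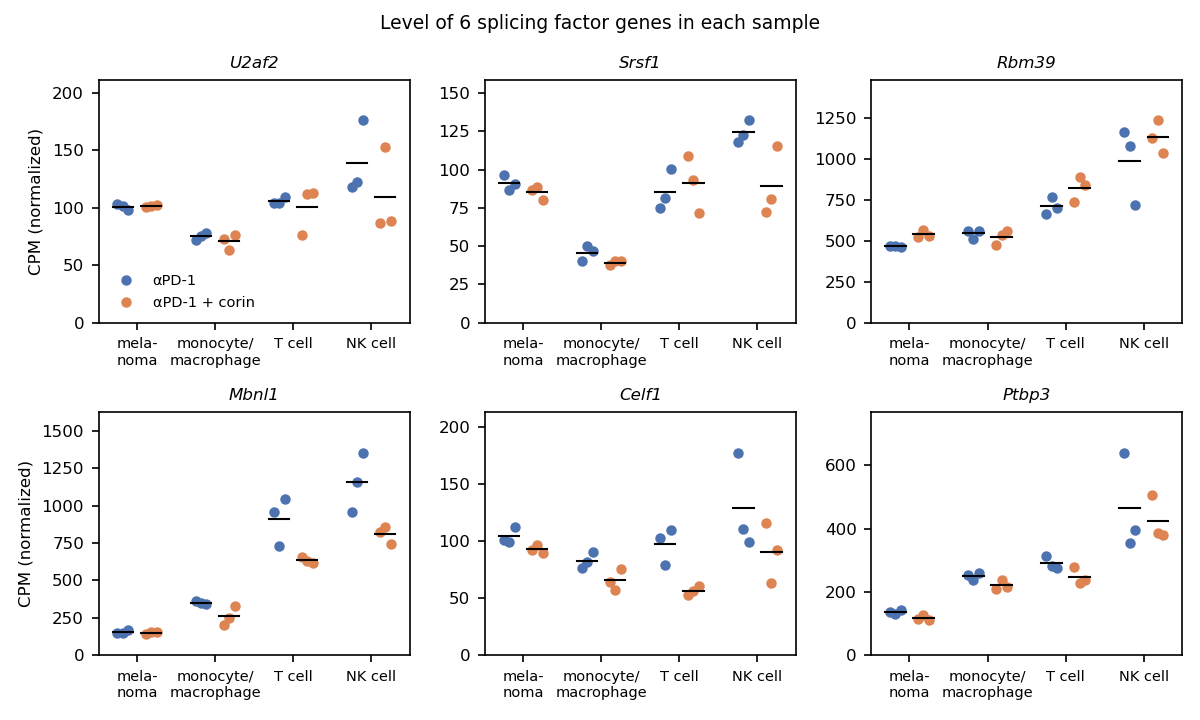
Level (y axis, CPM normalized within each class over the genes that passed its filter) of U2af2, Srsf1, Rbm39, Mbnl1, Celf1 and Ptbp3 in melanoma cells, monocytes and macrophages, T cells and NK cells (x axis). Levels of different classes are therefore not on the same scale. Points are samples, bars are means of 3 samples, blue is αPD-1 and orange αPD-1 + corin. U2af2 in melanoma cells stays between 97.8 and 103 CPM in all 6 samples, and Celf1 in T cells shows 3 corin samples below the 3 αPD-1 samples.

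NK and dendritic cells were too few for a sharp comparison, with 38 to 140 and 36 to 117 cells per sample. In NK cells 46 of the 54 genes passed the filter and 0 were called (edgeR), where 0% of 2363 genes were, and 375 of these had an unadjusted p below 0.05, 2 of them splicing factor genes. DESeq2 called 0 of the 46 as well, and the share of all genes it called is not given. Groups did not overlap for 9 genes, against 21.3% of all genes. Mbnl1 was again the gene with the smallest p, at 955, 1158 and 1354 CPM against 825, 855 and 742 CPM with corin (-0.52 ± 0.18, adjusted p = 0.161, edgeR), and Hnrnpa1 lay at 364, 325 and 407 CPM against 535, 486 and 450 CPM (0.42 ± 0.19, adjusted p = 0.301). CPM in the tests were scaled to UMIs of genes that passed the filter, in αPD-1 replicate 1 of NK cells 96625 of 122763 UMIs. These NK values are therefore on a higher scale than the levels by class given above. In dendritic cells 52 genes passed the filter and 0 were called, where 0.165% of 4241 genes were (0.0472% higher and 0.118% lower), with no overlap for 5 genes against 12% of all, and 1 had an unadjusted p below 0.05. That was Rbm39, at 591, 513 and 505 CPM against 765, 846 and 613 CPM (0.47 ± 0.18, adjusted p = 0.704, edgeR). Over all immune cells together 0 of 54 genes passed, where 3.1% of 14208 genes did (0.669% higher and 2.43% lower), and 6 had an unadjusted p below 0.05. Celf1 at 84.5, 80.0 and 97.4 CPM against 64.0, 58.4 and 66.3 CPM came closest (-0.47 ± 0.12, adjusted p = 0.0771, edgeR). Groups did not overlap for 15 genes, against 35.4% of all genes. DESeq2 called 1 of the 54, and the share of all genes it called is not given. Without αPD-1 + corin replicate 3 the called genes were 4, and the share of all genes in that fit is not given. The T, NK and myeloid sums enter this sum, so their values are not independent of it.

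Whether corin acted differently on these genes in melanoma cells than in monocytes and macrophages was tested as an interaction over the paired sums. No gene of the 54 passed (0 of 54, edgeR), where 0.0188% of the 15996 genes tested did (0.0125% higher and 0.00625% lower), and 6 had an unadjusted p below 0.05, all with a more positive change in melanoma cells. They were Clk1, Mbnl1, Rbm39, Srsf5, Tra2b and Celf2, with differences between 0.26 and 0.47 on the log2 scale and adjusted p values of at least 0.291, and they were named after their values were seen. Without αPD-1 + corin replicate 3 the called genes were 1, and the share of all genes in that fit is not given. For U2af2 the difference was 0.13 ± 0.12 (adjusted p = 0.675, edgeR).

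All 54 genes are protein-coding in GENCODE vM39 and lie on 18 chromosomes. Srsf1 is on chromosome 11 from 87938129 to 87944581 and U2af2 on chromosome 7 from 5065107 to 5082946 of GRCm39, both on the plus strand. Mbnl1 lies on chromosome 3 (60380102 to 60537183, plus), Ptbp3 on chromosome 4 (59471868 to 59549371, minus) and Celf1 on chromosome 2 (90770584 to 90849842, plus). Celf2 and Hnrnpm overlap another counted gene on the same strand, and 30 genes overlap one on the opposite strand, so their counts depend on how overlapping reads were assigned.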

How the data were processed

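Libraries of 6 samples (3 per group) were made with a 5′ single-cell kit. The deposited values were whole-number UMI counts per gene and barcode, which the authors made with Cell Ranger 8.0 (file header 8.0.1), and they were not normalized. Methods give GRCm39, while the gene list has 32285 entries, so the build of the counts was not settled. The authors' cell-level tests were not used. Barcodes under 600 genes or over 10% mitochondrial UMIs were dropped. The upper limit of 4000 genes that the study set was an alternative, since 77.5% of melanoma cells exceeded it. An immune class needed at least 3 UMIs of at least 2 of its markers and, counted with related classes, 75% of all marker UMIs. Related were T and NK cells, B and plasma cells, and monocytes or macrophages with neutrophils and with dendritic cells. Plasmacytoid and other dendritic cells were related too. Such a barcode also held fewer than 3 UMIs of the melanoma gate genes, or at most 20 per 10000 UMIs. Doublets were limited by these rules and, as an alternative, removed with Scrublet, which marked 2002 barcodes.

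UMIs were summed per sample and class, with at least 20 cells, and tested with edgeR 4.0.16 (quasi-likelihood, TMM, low-count filter, R 4.3.3), with the sample as a term between lineages and without it for corin. Adjusted p-values are Benjamini-Hochberg over all genes tested. DESeq2 1.42.0, RLE size factors, no filter, other cell filters and each sample left out were alternatives, and a further alternative for T cells is not reported here. The models were tested on simulated data. Named genes were U2af2 and Srsf1, the 6 genes each way with the largest change in melanoma cells, the 4 each way with the smallest p for corin in melanoma cells, and up to 3 each way in immune classes. The genes and lists were chosen with earlier results of these data known. Promoters came from RefSeq (GRCm38.p6) and positions from GENCODE vM39. Python 3.11.15, numpy 2.4.6, pandas 2.3.3 and scanpy 1.11.5 were used. Intervals cover the spread between samples only.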

Additional observations from a re-analysis of the deposited data

Results flagged for a closer look

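Single sums that stood far from the other 5 of their lineage were found for 2 genes, among 28 sets of 6 sums examined, where chance gives about 1 in 20. Sf3a1 in immune cells of αPD-1 + corin replicate 3 lay at 45.1 CPM, and the other 5 immune sums between 36.5 and 38.2 CPM, a gap of 0.804 of the whole range. Hnrnpab in the same immune sum lay at 378 CPM, and the others between 272 and 312 CPM, a gap of 0.626 of the range. This sample had 1059 T cells, the most of the 6, and the highest share of cycling immune cells (31.3%), and their part in these values was not tested. Both values were still below every melanoma sum.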

How the results depend on the processing

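Counts of splicing factor genes stayed within 1.5 times of the reported one in 210 comparisons with an alternative and not in 31. Of the values of single named genes that passed in at least 1 of the 2 fits compared, 7 changed sign. A further 40 lost and 22 gained their call. The other 1398 kept their call or passed in neither fit, and sign changes of the latter were not counted. U2af2 in melanoma against immune cells was 1 of these, at 0.14 as reported and -0.21 in cells with 2000 to 10000 UMIs. The cause was not tested. Counts in this paragraph are given without the share of all genes called in the same fit, so they are not set against a background. With 600 to 4000 genes per cell, 15 genes were higher in melanoma cells than in immune cells, 18 higher than in monocytes and macrophages, and corin calls in T cells were 4. In cells with 2000 to 10000 UMIs these counts were 10, 15 and 2. Without cycling cells 21 were higher and 21 lower than in monocytes and macrophages, 18 were higher in T cells than in monocytes and macrophages, and corin calls were 5 in T cells and 3 in all immune cells. Without a filter on low counts 17 were higher and 11 lower than in T cells, and corin calls in T cells were 2. DESeq2 called 1 gene in melanoma cells, 0 in T cells and 1 in all immune cells. With each sample left out in turn, genes lower in melanoma than in T cells ran from 13 to 21, and genes lower in T cells than in monocytes and macrophages from 2 to 3. Corin calls then ran from 0 to 3 in monocytes and macrophages, from 0 to 3 in T cells, from 0 to 4 in all immune cells and from 0 to 1 in the interaction, the highest each time without αPD-1 + corin replicate 3 except in T cells (αPD-1 replicate 2). U2af2 against monocytes and macrophages turned to -0.11 (600 to 4000 genes), -0.14 (no cycling cells), -0.11 (2000 to 10000 UMIs) and -0.0468 (melanoma cells without immune marker UMIs, chosen after seeing the data). Puf60 against T cells turned to -0.0296 in cells with 2000 to 10000 UMIs, and without cycling cells Hnrnpab turned to -0.17 and Hnrnpd to -0.0540 in T cells against monocytes and macrophages.

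Replicate numbers of the 2 groups did not pair the samples: deviations of same-numbered melanoma sums correlated at 0.263, 0.139 and -0.268, and no class had every sample closest to its own number. With the replicate block the corin calls among the 54 genes were 0 in melanoma cells, 0 in monocytes and macrophages, 1 in T cells and 0 in the other classes. Depth limits the corin contrast in NK and dendritic cells most, where sums held as few as 38 and 36 cells, and the deposited totals do not show splice-site use.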
